A study of Mus musculus with 6 samples.

Results

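The Wnt pathway was described through 52 genes: 16 ligands, 15 receptors and co-receptors, 10 secreted inhibitors, and 11 feedback genes, target genes and effectors. A gene entered when a probe that is not a control spot carried a RefSeq transcript of that gene, and all 52 had such a probe among the 20887 genes with a named probe. RNA was compared between Lgr5-positive and Lgr5-negative cells of the mouse mammary gland, with 3 two-colour arrays per group. Both groups came from virgin C57/B6 mice with the genotype lgr5-egfp-ires-creert2, in which EGFP is made from the Lgr5 locus, and from the gate called P4 (Lin-CD24+CD29hi), which is enriched in basal cells. The Lgr5-positive cells were GFP+ and the Lgr5-negative cells GFP-. Lgr5 is a receptor for R-spondins and a marker of stem cells in several epithelia, and in the intestine this allele is known to report in only some of the Lgr5-expressing cells. The labels give neither the age, the number and the pooling of the animals nor the zygosity, and do not say that replicates came from separate animals, so p-values measure the spread between these samples. Total RNA of each sample carried Cy5, and a universal mouse RNA, a mix of 11 cell lines, carried Cy3 on every array. Each value below is a log2 ratio of Cy5 to Cy3, so that 0 means as bright as the universal RNA. Such ratios compare samples for one gene and do not rank genes against each other.

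Wnt proteins are secreted ligands that carry a lipid and bind Frizzled receptors. With the co-receptors Lrp5 or Lrp6 they stop the destruction of beta-catenin, which then enters the nucleus and switches on target genes together with the TCF/LEF factors. Other Wnts, of which Wnt5a is the best known, act through Frizzled, Ror and Ryk receptors without beta-catenin. Secreted inhibitors bind the ligand (the Sfrp family, Wif1), block Lrp6 (Dkk1) or remove the lipid (Notum), and feedback genes such as Axin2 and Nkd1 are switched on by the pathway and dampen it. In the mammary gland, Wnt signals are known to support basal stem cells and the growth of the ducts.

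With the group alone, the fit set as the main one, 0 of 42 tested members passed. The calls given here are those of the paired fit, which also used the replicate number. Lgr5-positive cells had more transcript of Sfrp2, Wif1, Dkk3 and Sfrp1, classed here as secreted inhibitors, by 1.73-fold to 2.32-fold. They also had more of the ligand Wnt9a, by 2.03-fold. They had less of the receptors Fzd4, Ror2 and Fzd10, which were 3.04-fold, 2.40-fold and 2.19-fold lower. Transcripts of the ligand Wnt5a, the receptors Fzd7 and Fzd2 and the co-receptor Lrp6 were 1.47-fold to 1.87-fold higher, with less stable calls. Those of Wnt5a, Fzd2 and Lrp6 were lost whichever pair of arrays was left out. Without pair 2, the calls of Sfrp1, Dkk3, Fzd4, Ror2 and Fzd7 were lost too. Only those of Sfrp2, Wif1, Wnt9a and Fzd10 held without any one pair, and that of Fzd10 was lost with the scanner software's ratio. Dimmer second probes of Fzd7 and Lrp6 differed by only 0.13 and 0.16. Of the 9 tested feedback genes and effectors 0 passed, with Axin2 at 0.26 and Lef1 at -0.09, and Sp5 was too dim to test. Beside 7.72% of all genes called in the paired fit, 0 of 9 does not set this class apart. Of 20 further genes reported as Wnt targets, 3 rose and 2 fell in the paired fit (25% called). Among them Nrcam and Sox9 rose and Ccnd1 fell. In bulk RNA, fewer cells of a type and less RNA per cell cannot be told apart.

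These 12 calls came from the paired fit, in which the replicate number entered as a block because arrays with the same number deviated together. Over the 42 members that could be tested, limma with Benjamini-Hochberg adjustment over 15675 genes called 9 higher and 3 lower in the paired fit at an adjusted p under 0.05, against a background over all genes of 2.11% higher and 5.61% lower (7.72% in either direction). With the group as the only term, 0 of 42 members passed, against 0.612% of all genes, and 9 of 42 had an unadjusted p under 0.05, against 8.2% of all genes. The standard errors below are those of the paired fit. The median standard error of the members was 0.33 with the group alone and 0.14 in the paired fit. The 3 arrays of one group lay wholly above or below those of the other for 9 of 42 members, against 12.2% of all genes. The difference had the same sign in all 3 pairs for 25 members (20 up, 5 down), against 44.3% of all genes. The members' median difference was 0.26, beside a median of 0.0099 for all genes tested. When arrays were centred on their median in place of loess, the all-gene median moved to -0.29, the paired fit called 97.8% of its genes lower in place of 72.7%, and the members' split became 5 higher and 8 lower.

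**Figure D1:**
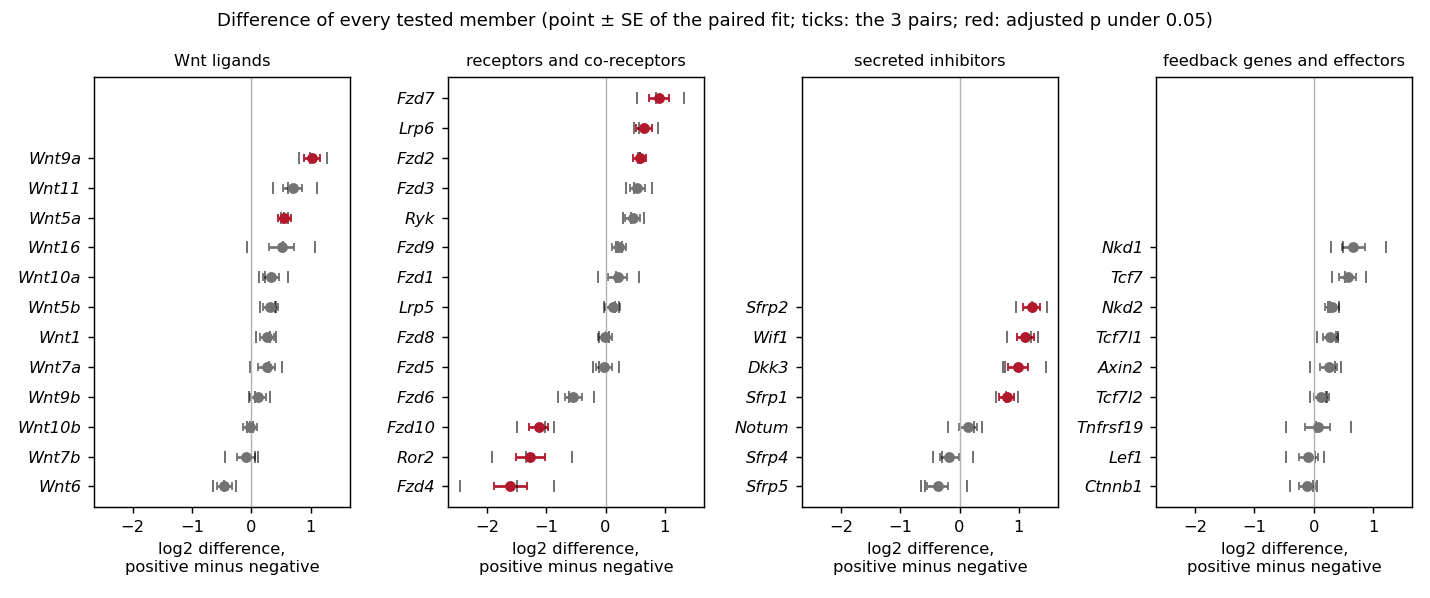
Log2 difference, Lgr5-positive minus Lgr5-negative, on the horizontal axis for each of the 42 tested members, in 4 panels by class. Points with bars are the estimate ± SE of the paired fit, ticks the 3 pairs, and red marks an adjusted p under 0.05; the 4 secreted inhibitors at the top of their panel lie between 0.79 and 1.22, and the 3 receptors at the bottom of theirs between -1.60 and -1.13.

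The remaining 10 members lacked Cy5 signal well above background on at least 3 arrays, the minimum set for a test: the ligands Wnt2, Wnt2b, Wnt3 and Wnt3a, the receptor Ror1, the inhibitors Frzb, Dkk1 and Dkk2, and the target genes Apcdd1 and Sp5. Wnt2, Wnt3, Wnt3a, Ror1, Frzb and Sp5 stood well above background on 0 of the 6 sample channels. For Dkk1, Dkk2 and Apcdd1 this held on all 3 Lgr5-positive arrays, while 1 Lgr5-negative array was above background, and Wnt2b was above it on 1 array of each group. The universal RNA did not light all of these probes either: Cy3 was above background on 0 arrays for Wnt3a and Ror1 and on 5 for Wnt2b. A dim spot gives only an upper bound on the transcript. At the other end, 37 members were above background on all 6 arrays.

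Promoters of 3 members that rose (Sfrp2, Wif1 and Wnt9a), 1 that fell (Ror2) and 1 that carries a TCF/LEF match (Wnt11) are printed to show what the start sites look like. They are the 250 bases before the annotated start from RefSeq (build GRCm38.p6), 5′ to 3′ on the gene's strand: Sfrp2 at chr3:83766071-83766320 (plus strand), Wif1 at chr10:121033754-121034003 (plus), Wnt9a at chr11:59306680-59306929 (plus), Ror2 at chr13:53286125-53286374 (minus) and Wnt11 at chr7:98834862-98835111 (plus, 1 of 2 listed starts). Capitals mark the GC box GGGCGG on either strand in the first 4, of which Sfrp2 has 0, Wif1 2, Wnt9a 5 and Ror2 4, and the TCF/LEF letters ATCAAAG in Wnt11, where GC boxes are left in lower case.
Sfrp2: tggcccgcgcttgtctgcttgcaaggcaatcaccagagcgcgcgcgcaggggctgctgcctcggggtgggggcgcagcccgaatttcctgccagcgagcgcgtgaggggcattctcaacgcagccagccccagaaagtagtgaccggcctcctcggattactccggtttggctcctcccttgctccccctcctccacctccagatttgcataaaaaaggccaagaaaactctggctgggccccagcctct
Wif1: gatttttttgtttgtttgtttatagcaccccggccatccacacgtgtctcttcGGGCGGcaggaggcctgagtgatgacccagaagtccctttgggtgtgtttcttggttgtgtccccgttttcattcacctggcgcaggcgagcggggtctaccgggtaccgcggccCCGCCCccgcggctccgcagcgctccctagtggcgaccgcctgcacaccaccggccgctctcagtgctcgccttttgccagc
Wnt9a: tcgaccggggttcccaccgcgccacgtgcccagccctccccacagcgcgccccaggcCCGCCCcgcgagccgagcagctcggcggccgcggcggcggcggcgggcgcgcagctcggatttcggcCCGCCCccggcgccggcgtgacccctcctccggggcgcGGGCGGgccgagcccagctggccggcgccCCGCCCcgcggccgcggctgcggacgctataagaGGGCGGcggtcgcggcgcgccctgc
Ror2: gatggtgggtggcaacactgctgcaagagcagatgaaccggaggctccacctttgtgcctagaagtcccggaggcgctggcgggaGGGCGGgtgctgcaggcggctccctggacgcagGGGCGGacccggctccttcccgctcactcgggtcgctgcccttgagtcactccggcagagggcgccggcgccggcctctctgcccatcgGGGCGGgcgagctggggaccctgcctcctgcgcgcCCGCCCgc
Wnt11: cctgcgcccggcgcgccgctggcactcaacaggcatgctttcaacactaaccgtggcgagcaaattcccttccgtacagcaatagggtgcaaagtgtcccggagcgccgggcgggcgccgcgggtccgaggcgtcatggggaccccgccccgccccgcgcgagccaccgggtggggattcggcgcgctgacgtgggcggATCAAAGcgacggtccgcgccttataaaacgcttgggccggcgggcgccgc
The windows of Wnt9a and Ror2 are rich in G and C, at 84.4% and 73.2%, and that of Wnt9a holds 48 CpG. Of the 52 members 38 had an entry, and 30 of them (78.9%) held GGGCGG on either strand, beside 54.9% of the 12404 tested genes with an entry and 32.7% of all 32851 promoters. ATCAAAG on either strand was present in 4 members, Sp5, Tnfrsf19, Wnt11 and Wnt5b, or 10.5%, beside 3.05% of tested genes and 3.21% of all promoters. The 7 called members with an entry held ATCAAAG in 0 cases and GGGCGG in 6 (Fzd10, Fzd4, Fzd7, Ror2, Wif1 and Wnt9a). A match describes letters in the window and is not a measured binding site. No promoter is shown for Fzd8, Sfrp4, Wnt7b, Fzd2, Lrp6, Sfrp1, Fzd3, Fzd6, Apcdd1, Dkk3, Lrp5, Notum, Wnt10a and Wnt5a.

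Among the member ligands, 12 of 16 were tested, 2 rose in the paired fit, 0 fell, and the median difference was 0.29. The paired fit thus called 16.7% of them, beside 7.72% of all genes. Wnt4, a ligand outside the 52 members, fell by 1.30 (adjusted p = 0.0360 in the paired fit). Wnt9a, a ligand known from joint development in mouse, had log2 ratios of 1.46, 0.25 and 0.60 on Lgr5-positive arrays 1 to 3, against 0.19, -0.56 and -0.39 on Lgr5-negative arrays 1 to 3, numbered by replicate as in all values that follow. The lowest Lgr5-positive array lay just above the highest Lgr5-negative one, and replicate 1 was the highest in both groups. The difference was 1.02 (SE 0.13; adjusted p = 0.00722 in the paired fit and 0.440 with the group alone), and the paired call held without any one pair (adjusted p = 0.0114 to 0.047). Wnt5a, which acts mainly without beta-catenin and in mouse restrains mammary branching, had log2 ratios of 1.50, 0.70 and 1.72 on the Lgr5-positive arrays, against 0.88, 0.16 and 1.22 on the Lgr5-negative arrays. Its groups overlapped, but within every pair the Lgr5-positive array was higher by a nearly equal step of 0.50 to 0.62. This gave a difference of 0.56 (SE 0.12; adjusted p = 0.0352 paired and 0.991 with the group alone). The Wnt5a call was lost without pair 1, 2 or 3 (adjusted p = 0.0919, 0.201 and 0.0753), under median centring (0.477) and in the Cy5 channel alone (0.180).

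Of the other ligands, Wnt11, known from kidney and heart development, came nearest to the threshold, with a difference of 0.69 (SE 0.16, adjusted p = 0.0519 in the paired fit). Its Lgr5-positive array was the higher one in each pair, by 0.61, 1.10 and 0.37. Wnt6 had the lowest value among the tested member ligands, -0.46 (adjusted p = 0.0887), with the Lgr5-positive array lower in all 3 pairs. Wnt16 differed by 0.51 (adjusted p = 0.237), Wnt10a by 0.33 (0.242), Wnt5b by 0.32 (0.199), Wnt1 by 0.26 (0.297), Wnt7a by 0.26 (0.368) and Wnt9b by 0.11 (0.692). Wnt10b, an early mammary ligand in mouse embryos, and Wnt7b were nearest to 0, at -0.03 (0.925) and -0.09 (0.781). Some members of this family lie in adjacent pairs in GRCm38.p6. Wnt6 (-0.46) adjoins Wnt10a (0.33) on chromosome 1, and Wnt10b (-0.03) adjoins Wnt1 (0.26) on chromosome 15. On chromosome 11, Wnt9a (1.02) adjoins Wnt3a and Wnt9b (0.11) adjoins Wnt3, where Wnt3a and Wnt3 were too dim to test. Of these genes only Wnt9a had a call. The differences between neighbours were not tested.

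**Figure D2:**
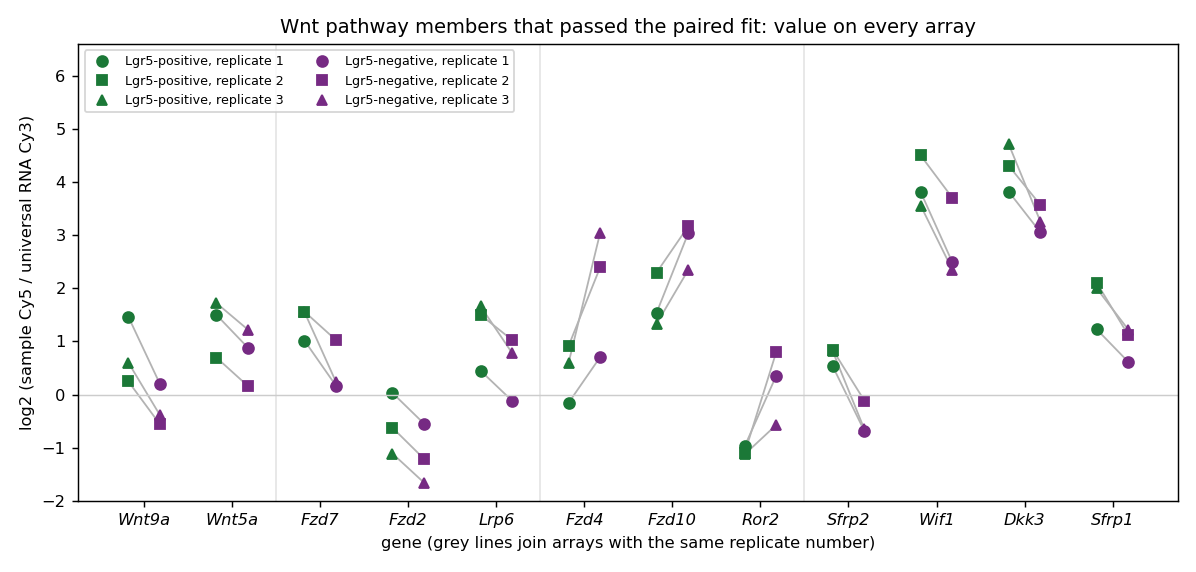
Log2 ratio of sample Cy5 to universal RNA Cy3 (vertical axis) on every array for the 12 members called in the paired fit, Lgr5-positive in green to the left of Lgr5-negative in purple, with a marker shape per replicate and grey lines joining equal replicate numbers. All lines of Wnt9a, Wnt5a, Fzd7, Fzd2, Lrp6 and the 4 inhibitors slope down to the right, and all lines of Fzd4, Fzd10 and Ror2 slope up.

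Receptors moved in both directions: of 14 tested, 3 rose and 3 fell in the paired fit, around a median difference of 0.16. That is 42.9% called, beside 7.72% of all genes. Fzd4, a Frizzled that also serves Norrin in blood vessels, had log2 ratios of -0.16, 0.91 and 0.59 on the Lgr5-positive arrays, against 0.71, 2.40 and 3.05 on the Lgr5-negative arrays. The groups overlapped only through the Lgr5-negative array of replicate 1, which lay below 1 Lgr5-positive array of another pair. The difference was -1.60 (SE 0.28; adjusted p = 0.0192 paired, 0.501 with the group alone), and without the Lgr5-negative array of replicate 1 the fit with the group alone gave -2.28 (adjusted p = 0.0395). The paired call of Fzd4 was lost without pair 2 (adjusted p = 0.122). Fzd10, a Frizzled with few established ligands, had log2 ratios of 1.54, 2.30 and 1.33 on the Lgr5-positive arrays, against 3.04, 3.17 and 2.35 on the Lgr5-negative arrays. The groups did not overlap, although the lowest Lgr5-negative array and the highest Lgr5-positive one were close. Its difference was -1.13 (SE 0.15; adjusted p = 0.00822 paired, 0.307 with the group alone), it held without any one pair (0.00886 to 0.0474) and was lost with the scanner software's ratio (-0.88, adjusted p = 0.224). The universal RNA lit the Fzd10 probe above background on only 4 arrays, and the Cy5 channel alone also gave a call (adjusted p = 0.00542).

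Ror2, the receptor tyrosine kinase through which Wnt5a acts, had log2 ratios of -0.98, -1.10 and -1.13 on the Lgr5-positive arrays, against 0.36, 0.80 and -0.57 on the Lgr5-negative arrays. The 3 Lgr5-positive arrays were nearly equal and all below the Lgr5-negative ones, which spread widely. On 2 of 3 Lgr5-positive arrays and all Lgr5-negative arrays the probe was well above background, so the remaining Lgr5-positive value is only an upper bound. The difference was -1.27 (SE 0.24; adjusted p = 0.0267 paired, 0.252 with the group alone), and the call was lost without pair 2 (adjusted p = 0.143). Wnt5a and Ror2 thus differed in opposite directions in all 3 pairs. The probe of its relative Ror1 was too dim to test.

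Fzd7, a receptor reported in stem cells of several tissues, had log2 ratios of 1.02, 1.56 and 1.55 on the Lgr5-positive arrays, against 0.16, 1.02 and 0.23 on the Lgr5-negative arrays. The Lgr5-negative array of replicate 2 just exceeded the Lgr5-positive array of replicate 1, and the other Lgr5-negative arrays lay well below. The difference was 0.91 (SE 0.17; adjusted p = 0.0244 paired, 0.370 with the group alone). The second probe of Fzd7, the dimmer one, differed by only 0.13 (adjusted p = 0.623), the mean of both probes did not pass (0.0731), and the call was lost without pair 2 (0.0670) and pair 3 (0.0502). Lrp6, the co-receptor that is phosphorylated when Wnt binds, had log2 ratios of 0.45, 1.50 and 1.66 on the Lgr5-positive arrays, against -0.12, 1.02 and 0.78 on the Lgr5-negative arrays. Its pairs differed more from each other than the groups did. The paired difference was 0.64 (SE 0.13; adjusted p = 0.0341, and 0.984 with the group alone), the dimmer second probe gave 0.16 (0.534), and the call was lost without pair 1, 2 or 3 (0.0505, 0.138 and 0.106). Fzd2, a receptor for Wnt5a among others, had log2 ratios of 0.03, -0.62 and -1.11 on the Lgr5-positive arrays, against -0.55, -1.21 and -1.66 on the Lgr5-negative arrays. The step within a pair was 0.55 to 0.59 in all 3, while the level varied over a far wider range between pairs, in both groups alike. Its difference was 0.57 (SE 0.11; adjusted p = 0.0305 paired, 0.996 with the group alone), and it too was lost without pair 1, 2 or 3 (0.0689, 0.194 and 0.0732) and under median centring (0.09, adjusted p = 0.584).

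The other 8 receptors did not pass. Fzd3 differed by 0.54 (SE 0.13, adjusted p = 0.0621) and Ryk, a Wnt-binding receptor with an inactive kinase, by 0.46 (SE 0.13, 0.0859), both higher in the Lgr5-positive array of each pair. Fzd6, a Frizzled of planar polarity, differed by -0.54 (SE 0.15, 0.0865) and was lower in each pair. Fzd9 differed by 0.22 (0.326), Fzd1 by 0.20 (0.524) and Lrp5, the second co-receptor, by 0.12 (0.641), while Fzd8 and Fzd5 lay at -0.01 (0.966) and -0.03 (0.928).

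Secreted inhibitors had the highest class median, 0.79, and 4 of 7 tested rose in the paired fit while 0 fell. That is 57.1% called, beside 7.72% of all genes. Under median centring the class median was 0.57, where those of ligands, receptors and feedback genes were -0.07, -0.12 and -0.15 beside the all-gene median of -0.29. Sfrp2, a soluble protein with a Frizzled-like domain that binds Wnts, had log2 ratios of 0.53, 0.84 and 0.82 on the Lgr5-positive arrays, against -0.69, -0.11 and -0.65 on the Lgr5-negative arrays. All Lgr5-positive arrays lay above the universal RNA and all Lgr5-negative arrays below it. The difference was 1.22 (SE 0.14; adjusted p = 0.00462 paired), and 0.082 was the lowest adjusted p of any member with the group alone. Without any one pair it held (0.00512 to 0.0302). Wif1, which binds Wnts through its WIF domain, had log2 ratios of 3.81, 4.50 and 3.56 on the Lgr5-positive arrays, against 2.49, 3.70 and 2.35 on the Lgr5-negative arrays. The Lgr5-negative array of replicate 2 overlapped with the Lgr5-positive group, and replicate 2 was the highest in both groups. The difference was 1.11 (SE 0.14; adjusted p = 0.00664 paired, 0.501 with the group alone), and it held without any one pair (0.00979 to 0.0315).

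Dkk3, a divergent Dickkopf protein whose effect on Wnt signalling varies between systems, had log2 ratios of 3.82, 4.31 and 4.71 on the Lgr5-positive arrays, against 3.05, 3.57 and 3.26 on the Lgr5-negative arrays. The groups did not overlap, and the gap was widest in replicate 3. The difference was 0.99 (SE 0.17; adjusted p = 0.0194 paired, 0.258 with the group alone). Sfrp1, another Frizzled-like protein that binds Wnts, had log2 ratios of 1.23, 2.11 and 2.00 on the Lgr5-positive arrays, against 0.61, 1.11 and 1.22 on the Lgr5-negative arrays. The lowest Lgr5-positive and the highest Lgr5-negative array were almost level. The difference was 0.79 (SE 0.13; adjusted p = 0.0152 paired, 0.490 with the group alone). Without pair 2, Dkk3 (adjusted p = 0.0902) and Sfrp1 (0.135) lost their calls. The universal RNA was above background on 4 arrays for Sfrp1, and the Cy5 channel alone again gave a call (0.0319). The inhibitors that did not pass were Notum, the esterase that removes the Wnt lipid, at 0.14 (adjusted p = 0.645), Sfrp4 at -0.17 (0.597) and Sfrp5 at -0.37 (0.297).

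Of the feedback genes, target genes and effectors, 9 of 11 were tested, 0 passed in either fit, and the median difference was 0.26. Over all genes 7.72% passed in the paired fit and 0.612% with the group alone, so 0 of 9 does not set this class apart. Nkd1, an antagonist that binds Dishevelled and is a target of the pathway, had log2 ratios of 3.34, 3.79 and 3.42 on the Lgr5-positive arrays, against 3.05, 3.30 and 2.19 on the Lgr5-negative arrays. The groups just failed to overlap, with the widest gap in replicate 3. Its difference of 0.67 (SE 0.19) had an adjusted p of 0.0946 in the paired fit and 0.716 with the group alone, and its dimmer probe gave 0.14 (0.587). Tcf7, a TCF/LEF factor, had log2 ratios of -1.20, -0.48 and -0.86 on the Lgr5-positive arrays, against -1.73, -0.79 and -1.74 on the Lgr5-negative arrays. Within each pair the Lgr5-positive array was higher, while the groups overlapped. The difference was 0.58 (SE 0.14; adjusted p = 0.0640 paired, 0.884 with the group alone).

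Axin2, the scaffold of the destruction complex most used as a Wnt target, differed by 0.26 (SE 0.14, adjusted p = 0.371), with 1 of 3 pairs below 0. The relative of Nkd1, Nkd2, differed by 0.31 (0.188), the repressor Tcf7l1 by 0.28 (0.277) and Tcf7l2 by 0.13 (0.623). The dimmer probe of Nkd2 gave -0.21 (0.544), and the dimmer probes of Tcf7l2 gave -0.15 (0.506) and 0.16 (0.496). Ctnnb1, which encodes beta-catenin and is controlled mainly as a protein, lay at -0.11 (0.708), Lef1 at -0.09 (0.811), and Tnfrsf19, a receptor of the TNF family reported as a Wnt target in intestine, at 0.07 (0.895). Lef1 was well above background on 2 arrays of each group.

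The 92 further pathway genes listed beside the members had a median difference of 0.06 over the 81 tested. Of these, 6 rose and 4 fell in the paired fit, or 12.3% called beside 7.72% of all genes. With the group alone 0 passed, beside 0.612% of all genes. Outside the cell, 3 of 11 tested changed. Tpbg, a membrane protein that inhibits Wnt signalling, rose by 1.16 (SE 0.14, adjusted p = 0.00547), and Trabd2b, a protease reported to cleave Wnts, rose by 0.91 (SE 0.13, 0.0104). The ligand Wnt4, which progesterone induces in luminal cells, fell by 1.30 (SE 0.27, 0.0360). In the secretion machinery 0 of 4 passed, with Wls, the Wnt carrier, at 0.31 (0.278) and the acyltransferase Porcn at 0.14 (0.585).

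Of the destruction complex and its regulators 0 of 20 passed in either fit (adjusted p-values here are those of the paired fit), and the lowest p-values belonged to Gsk3a at 0.53 (adjusted p = 0.108) and Frat1 at -0.30 (0.283). Of 12 planar polarity genes 0 passed, with Celsr1 at -0.42 (0.103) and Prickle1 at -0.74 (0.0594). Beside 7.72% of all genes called in the paired fit, a count of 0 sets neither list apart. Among 14 nuclear cofactors the co-repressor Tle3 rose by 0.74 (SE 0.13, 0.0179), with pair means spread from 0.31 to 3.57, and Sox17, a factor of endoderm and endothelium that binds beta-catenin, fell by 1.10 (SE 0.13, 0.00457). Of 20 genes reported as Wnt targets in other tissues, 3 rose and 2 fell in the paired fit (25% called). Nrcam, a cell adhesion molecule, rose by 1.19 (SE 0.14, 0.00522) and Sox9, a transcription factor, by 0.88 (SE 0.14, 0.0144). Ccnd1, which encodes cyclin D1, fell by 2.01 (SE 0.32, 0.0136) and the AP-1 gene Jun by 0.58 (SE 0.12, 0.0334).

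Markers of other cells moved with the same comparison. Over all genes, the paired fit called 2.11% higher and 5.61% lower. All 14 basal markers were above background on all 6 arrays, with a median difference of 0.39 and 4 higher in the paired fit (Krt17, Cnn1, Oxtr and Cdh3) and 0 lower. Vascular endothelial markers had a median difference of -2.09, 9 of 12 lower in the paired fit, Eng among them, and 3 with the group alone (Egfl7, Plvap and Tie1). Their mean log2 ratio was 1.15, 2.06 and 1.12 on the Lgr5-positive arrays, against 2.82, 3.38 and 3.57 on the Lgr5-negative arrays. Of the 13 with a probe, 10 stayed well above background on all 3 Lgr5-positive arrays and 2 on none, among them Tie1. On all 3 Lgr5-negative arrays 11 were above it. Pecam1 (-1.04) and Tek (-0.72) did not pass in the paired fit, and neither did Kdr (0.18), which was higher in all 3 pairs. Fzd4 differed in the pairs by -0.86, -1.49 and -2.46, beside median endothelial differences of -1.65, -1.41 and -2.72, and the part of endothelial RNA in the Fzd4 and Sox17 differences was not tested.

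Hormone-sensing luminal markers had a median of -0.98, with 7 of 11 lower in the paired fit, among them Ly6a, Foxa1, Areg and Esr1. Prlr (-0.14) and Pgr (-0.47) did not pass, nor did the keratins Krt8 (0.08) and Krt18 (0.03). The part of hormone-sensing luminal RNA in the lower Wnt4 and Ccnd1 values was not tested. Pericyte markers were lower for 4 of 8 (Des, Rgs5, Notch3 and Ndufa4l2; median -0.72), fibroblast markers for 5 of 10 with 1 higher (Dcn, Pi16, Col6a3 and Col3a1 among those lower; median -0.44), and lymphatic markers for 2 of 4 with 1 higher (Lyve1 and Mmrn1 lower, Pdpn higher; median -1.25). Des, Mmrn1 and the hormone-sensing marker Tnfsf11, like Tie1, were well above background on 0 Lgr5-positive and all 3 Lgr5-negative arrays. These genes entered the test only through the Lgr5-negative arrays, and their Lgr5-positive values are upper bounds. All are among the markers counted as lower. Luminal progenitor markers split into 1 higher (Lcn2) and 2 lower (Kit and Cd14) of 7, with a median of -0.06. Leukocyte markers had 1 of 9 lower (Cd74), or 11.1% called beside 7.72% of all genes, and a median of 0.0014. The 1 erythroid marker tested differed by 0.09. The part of the basal markers in the higher values of the inhibitors was not tested either.

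**Figure D3:**
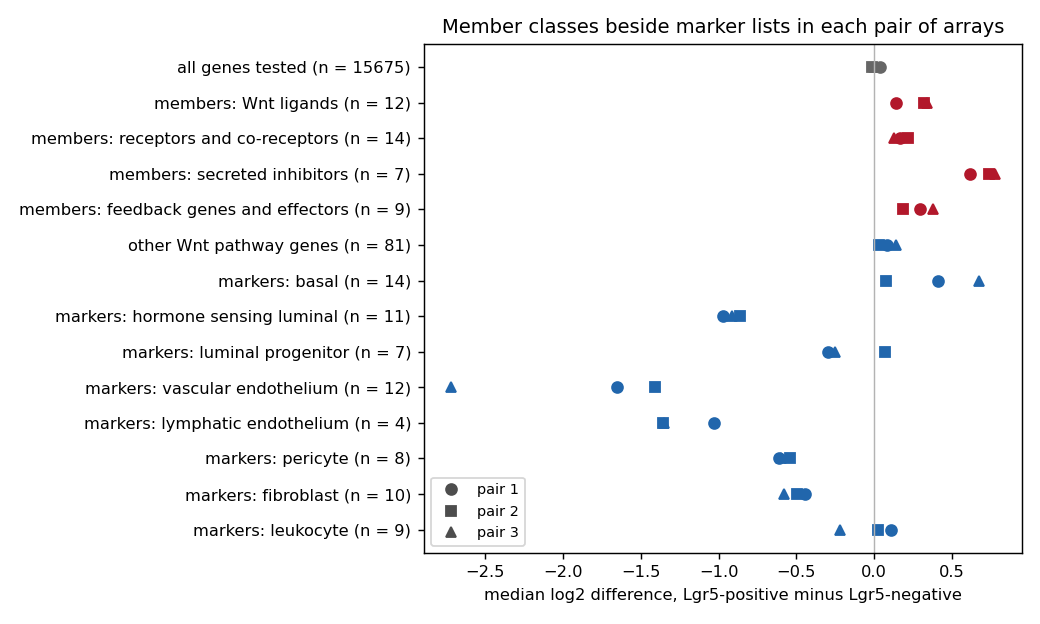
Median log2 difference, Lgr5-positive minus Lgr5-negative (horizontal axis), in each of the 3 pairs of arrays for all genes tested (grey), the 4 member classes (red), and the other pathway genes and marker lists (blue), with a marker shape per pair. The secreted inhibitors lie between 0.61 and 0.78 in the 3 pairs, and the vascular endothelial markers between -2.72 and -1.41.

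Median Cy5 signal was 137 to 169 on the Lgr5-positive arrays and 200 to 278 on the Lgr5-negative arrays, over a background of 64 to 76. Every pair thus had its dimmer array in the Lgr5-positive group. The share of probes well above background ran from 50.9% to 67.3% on Lgr5-positive arrays and from 56.3% to 74.4% on Lgr5-negative arrays. Lgr5 itself had log2 ratios of 4.24, 5.36 and 5.01 on the Lgr5-positive arrays, against 2.84, 4.04 and 3.31 on the Lgr5-negative arrays, a difference of 1.47 (SE 0.13, adjusted p = 0.00215 in the paired fit and 0.244 with the group alone, where it did not pass).

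Across the 7 other versions of the paired fit that kept all arrays, Sfrp1, Sfrp2, Wif1, Dkk3 and Wnt9a passed in 7 of 7. Ror2 passed in 6 of the 6 that could test it, and the filter for probes above background on all 6 arrays left it out. Fzd4 passed in 6 and Fzd10 in 5, with Fzd4 lost under the scanner software's ratio (adjusted p = 0.0503). Fzd2 passed in 4, and Fzd7, Lrp6 and Wnt5a in 3 each. Each of the 12 kept its direction in all of these versions.

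**Figure D4:**
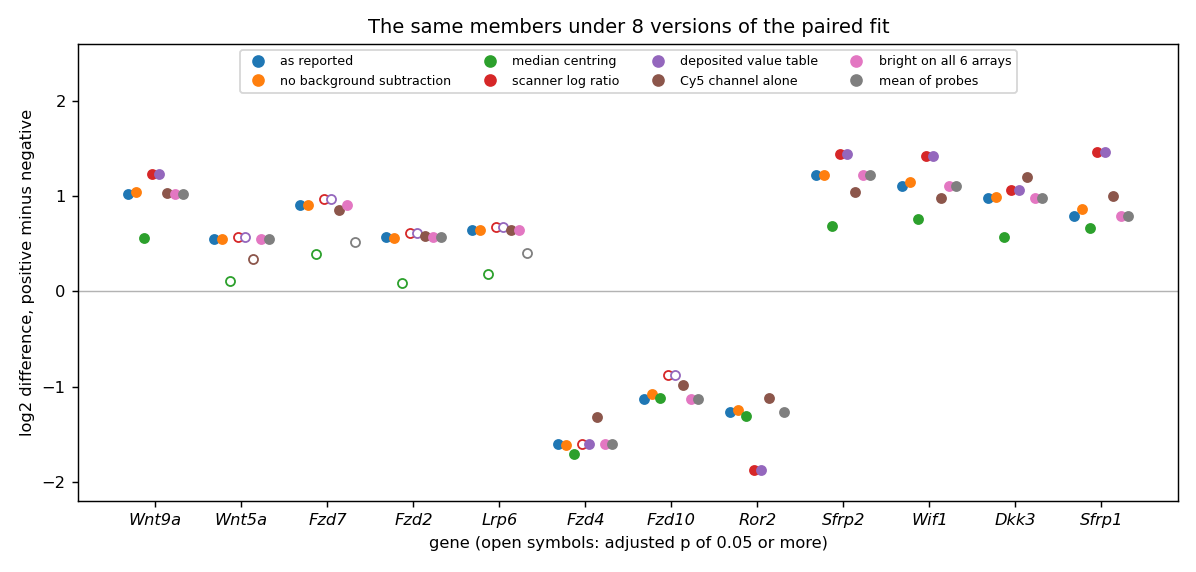
Log2 difference, Lgr5-positive minus Lgr5-negative (vertical axis), of the 12 called members under 8 versions of the paired fit (colours), with open symbols where the adjusted p was 0.05 or more. No symbol changes sides of 0, and the symbols of Wnt5a, Fzd2 and Lrp6 come closest to it, at 0.11, 0.09 and 0.18 under median centring.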

How the data were processed

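RNA of sorted mammary cells was measured on 6 Agilent two-colour arrays of 1 slide and 1 scan, read with Feature Extraction 11.0 by Agilent, per the submitters' notes on processing (11.0.1.1 per the file headers). Per the file headers, the authors deposited the median intensity of each spot and its background in both channels, the software's intensity once background was subtracted and dyes were normalized, and the log10 ratio of these (Cy5 over Cy3). A deposited value table for the series holds log2 ratios centred on each probe's median, as its values show.

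From the median intensities, normexp (offset 50) and loess within arrays gave log2 ratios (limma 3.58.1, R 4.3.3). Control spots and spots flagged as outliers were left out and spots of a probe averaged, giving 55681 probes. The arrays are annotated on mm9, and probes were named through RefSeq transcripts of GRCm38.p6, where 20504 of 20847 mRNA accessions matched. A probe was kept when Cy5 was well above background on at least 3 arrays (34544 probes), and the brightest probe stood for a gene. Of 15675 genes tested, p-values (two-sided) were adjusted by Benjamini-Hochberg at 0.05. The number of arrays limits the precision, and 0 spots were saturated. The fits had the group alone, set as the main fit, or the group with the replicate number as a block (the paired fit). Numbers were taken to pair arrays because same-numbered arrays deviated together from their group means, at correlations across genes of 0.810, 0.819 and 0.675. They also lay side by side on the slide, always with the Lgr5-positive array first, so that within pairs the group and the place on the slide cannot be told apart. The scripts were tested on simulated data. There the paired fit recovered 39% of changes of 1 log2 unit and 87% of those of 2. The fit with the group alone recovered 9% and 60%.

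The members and lists were chosen, and the classes of the members set by hand, with earlier results of these data known. Per-array values are given for members passing in either fit and, for a class with fewer than 2, for the 2 of lowest unadjusted p with the group alone. Of the other lists, up to 4 genes past the threshold, or else 2, are named by lowest p with the group alone. Alternatives changed the background correction, normalization, filter, probe rule, variance model and arrays used.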

Additional observations from a re-analysis of the deposited data

How the results depend on the processing

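With the group alone, 96 genes and 0 members passed. The genes became 9 under median centring, 44 with probes above background on all 6 arrays, 312 with array weights and 55 with trend and robust eBayes. Leaving out 1 array gave 0 to 371 genes: 0 without Lgr5-positive replicate 1 or 3, 77 without Lgr5-positive replicate 2, and 371, 5 and 21 without Lgr5-negative replicates 1, 2 and 3. Members passing ranged from 0 to 1 there, the 1 being Fzd4 without Lgr5-negative replicate 1. The 12 members called in the paired fit, and Lgr5, kept their direction in all alternatives run for them. Such alternatives were not run gene by gene for the other pathway genes and the markers. Of the members called only with the replicate block and median centring, Ctnnb1 and Wnt10b turned sign in 4 and 5 of 27 alternatives.

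With the replicate block 1210 genes and 12 members passed. The block gave 1193 genes and 12 members with no background subtraction, 5790 and 13 with median centring, 738 and 6 with the scanner log ratio, and 763 and 7 with the deposited value table. It gave 1274 and 12 with the Cy5 channel alone, 1102 and 12 with probes above background on all 6 arrays, and 1116 and 10 with the mean of probes. Leaving out 1 pair gave 325 to 1396 genes and 4 to 11 members: 1396 and 11 without replicate 1, 854 and 10 without replicate 3, and 325 and 4 without replicate 2 (Fzd10, Sfrp2, Wif1 and Wnt9a). The causes of these changes were not tested, apart from fewer arrays or probes entering.

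Among members without a call, the sign turned most often for Fzd5, Fzd8 and Tnfrsf19, in 11 of 27 alternatives, so these genes have no direction. For some others, such as Fzd3 and Tcf7, it turned in 0 of 27, but they had no call in any alternative either. The slide or scan as a block was not run, since there was 1 of each. Dim probes, with signal near a background of 64 to 76, limit what can be said of the 10 untested members.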

Other observations

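For 32 of 42 members (76.2%) the means of the 3 pairs ranged over more than the difference between the groups, beside 83.3% of all genes tested. The median range over pairs was 0.77 for the members and 0.51 for all genes, and the median size of the group difference was 0.35 and 0.16. The members' deviations from their group means correlated at 0.84, 0.82 and 0.65 across the 42 members for arrays with the same number, and genes are not independent replicates.

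The widest ranges over pairs among members were those of Fzd4 (pair means of 0.28, 1.66 and 1.82), Wnt16 (1.63, 0.08 and 1.08), Notum (1.99, 0.70 and 1.52), Wnt1 (2.08, 1.17 and 0.87) and Ctnnb1 (-0.72, 0.32 and 0.50). Pair 1 was the highest for Wnt16, Notum and Wnt1 and the lowest for Fzd4 and Ctnnb1. Outside the members, the co-repressor Tle3 had log2 ratios of 3.97, 0.58 and 1.36 on the Lgr5-positive arrays, against 3.17, 0.03 and 0.50 on the Lgr5-negative arrays. Its pair means were 3.57, 0.31 and 0.93, a range of 3.26, while the difference between the groups was 0.74. These genes were singled out after their values were seen, and the causes of their spread over the pairs were not tested.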
